A study of Homo sapiens with 24 samples.

Results

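Core histones form the protein spool of the nucleosome, and linker histones of the H1 family bind the DNA that enters and leaves it. The genes of both kinds that were measured one by one are described here in 2 human breast cancer cell lines. A gene was included when its annotation symbol starts with HIST1H to HIST4H in the old names or with H1-, H2AC, H2BC, H3C or H4C in the present ones, with H2AX and H2AZ1 added, and when a probe set named that gene alone. Of 22395 genes tested, 36 met this rule: 10 of the H1 class, 8 of the H2A class, 14 of the H2B class, 1 of the H3 class, 1 of the H4 class and the 2 H2A variants H2AX and H2AZ1. By position, 22 lie in the HIST1 cluster on the short arm of chromosome 6, 6 in HIST2 and 2 in HIST3 on chromosome 1, and 6 elsewhere (H1-7, H1-8, H1-9P, H1-10, H2AX and H2AZ1). The annotation classes 3 of them, H1-9P, H2AC2P and H2BC20P, as transcribed pseudogenes. Almost all H3 and H4 genes were named only by probe sets shared with their copies, which are treated apart at the end.

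Expression was measured on 24 arrays in 8 groups of 3. The lines were SUM159, of the triple-negative kind, and T47D, of the luminal kind with oestrogen receptor. Flasks received 5 µM ID8, a small molecule, or its solvent DMSO alone, and cells were collected after 72 hours. Cells were then sorted by aldehyde dehydrogenase activity into Aldefluor+ cells, which the submitters treat as cancer stem cells, and Aldefluor- cells. The groups are therefore SUM159 with DMSO, Aldefluor+ or Aldefluor-, SUM159 with ID8, Aldefluor+ or Aldefluor-, and the same 4 in T47D, with 1 array per group from each of experiments 2, 3 and 4 in SUM159 and 5, 6 and 7 in T47D. Each line is a single established culture, and cells of 3 flasks were pooled for each treatment in an experiment. The fractions are defined by an enzyme assay and not by lineage. The labels name separate experiments but not separate stocks of cells. The p-values thus measure how group differences vary between experiments, once the level of each experiment is fitted. A single spread per gene is estimated from both lines together.

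Most core and clustered linker histone genes are replication dependent. They are transcribed in S phase, when new DNA needs packaging, and their short transcripts end in a stem-loop bound by SLBP in place of a poly(A) tail. Replacement histones such as H1-10, H2AX and H2AZ1 are made through the cell cycle, wholly or in part from polyadenylated transcripts. H2A and H2B genes often stand head to head with a short promoter between them, and H2B promoters are known for an octamer motif, and H1 promoters for an H1 box.

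Promoter sequences were matched for 32 of the 36 genes (RefSeq, GRCh38.p14, 250 bases before to 50 after the gene's first base, on the gene's strand). Those of H1-10, the only gene called for ID8, of H1-4 as a clustered H1 gene, and of H2BC14 and H2BC9, the H2B genes with the smallest p-values for ID8, are shown to set their motifs side by side. They lie at chr3:129316237-129316536 (minus strand), chr6:26156079-26156378, chr6:27814772-27815071 and chr6:26251364-26251663 (plus strand). Capitals mark matches on either strand. The TATA box was searched as TATAAA, the box named for its letters as CCAAT, the octamer as ATTTGCAT and the H1 box as AAACACA, and no matches overlap in these 4 windows.
H1-10: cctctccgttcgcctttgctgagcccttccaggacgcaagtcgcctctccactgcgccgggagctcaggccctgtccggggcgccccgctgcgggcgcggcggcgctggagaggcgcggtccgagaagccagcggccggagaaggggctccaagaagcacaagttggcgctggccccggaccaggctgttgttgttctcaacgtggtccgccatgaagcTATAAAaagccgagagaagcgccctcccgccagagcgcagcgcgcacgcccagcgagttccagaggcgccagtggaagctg
H1-4: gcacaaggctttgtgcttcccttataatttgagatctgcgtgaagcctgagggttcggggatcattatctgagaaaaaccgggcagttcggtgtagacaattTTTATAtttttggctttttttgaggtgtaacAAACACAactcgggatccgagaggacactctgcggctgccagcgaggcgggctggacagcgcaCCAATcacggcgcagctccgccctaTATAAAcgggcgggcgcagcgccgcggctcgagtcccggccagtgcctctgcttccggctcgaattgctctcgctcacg
H2BC14: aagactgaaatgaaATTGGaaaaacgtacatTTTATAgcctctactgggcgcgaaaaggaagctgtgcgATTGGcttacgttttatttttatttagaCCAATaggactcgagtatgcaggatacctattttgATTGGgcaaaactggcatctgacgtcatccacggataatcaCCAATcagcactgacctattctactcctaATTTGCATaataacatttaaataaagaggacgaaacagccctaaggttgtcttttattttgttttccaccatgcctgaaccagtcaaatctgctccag
H2BC9: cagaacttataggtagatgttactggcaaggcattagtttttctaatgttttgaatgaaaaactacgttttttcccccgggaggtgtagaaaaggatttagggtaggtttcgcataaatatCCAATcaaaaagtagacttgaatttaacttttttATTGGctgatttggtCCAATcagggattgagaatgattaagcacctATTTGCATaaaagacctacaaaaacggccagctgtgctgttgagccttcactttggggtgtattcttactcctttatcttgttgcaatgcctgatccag
The H1-10 window holds a TATA box that begins 31 bases before the start and no match to the other 3 motifs, whereas that of H1-4 holds an H1 box, a CCAAT box and a TATA box at -117, -54 and -29, and a further TATA match on the other strand at -148. The windows of H2BC14 and H2BC9 hold an octamer at -48 and -49. Over the 32 windows, a CCAAT box was found in 30, a TATA box in 22, an octamer in 14 and an H1 box in 8. Over all 35116 windows of the same length the shares were 34.6%, 11.5%, 1.8% and 5.6%. The octamer was found in 9 of 13 H2B and 5 of 6 H2A windows and in 0 of 9 H1 windows, and the H1 box in 7 of 9 H1 windows. The octamer of H2BC14, at chr6:27814974-27814981, is the same site that the window of its divergent neighbour H2AC14 holds, since only 244 bases separate the genes. The windows of H2AC20 and H2BC21 also share an octamer site, as do those of H2AC1 and H2BC1. Such a site is counted for both genes, and all octamers in H2A windows lie on the other strand. These matches describe letters in a window and do not show that a factor binds.

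**Figure D1:**
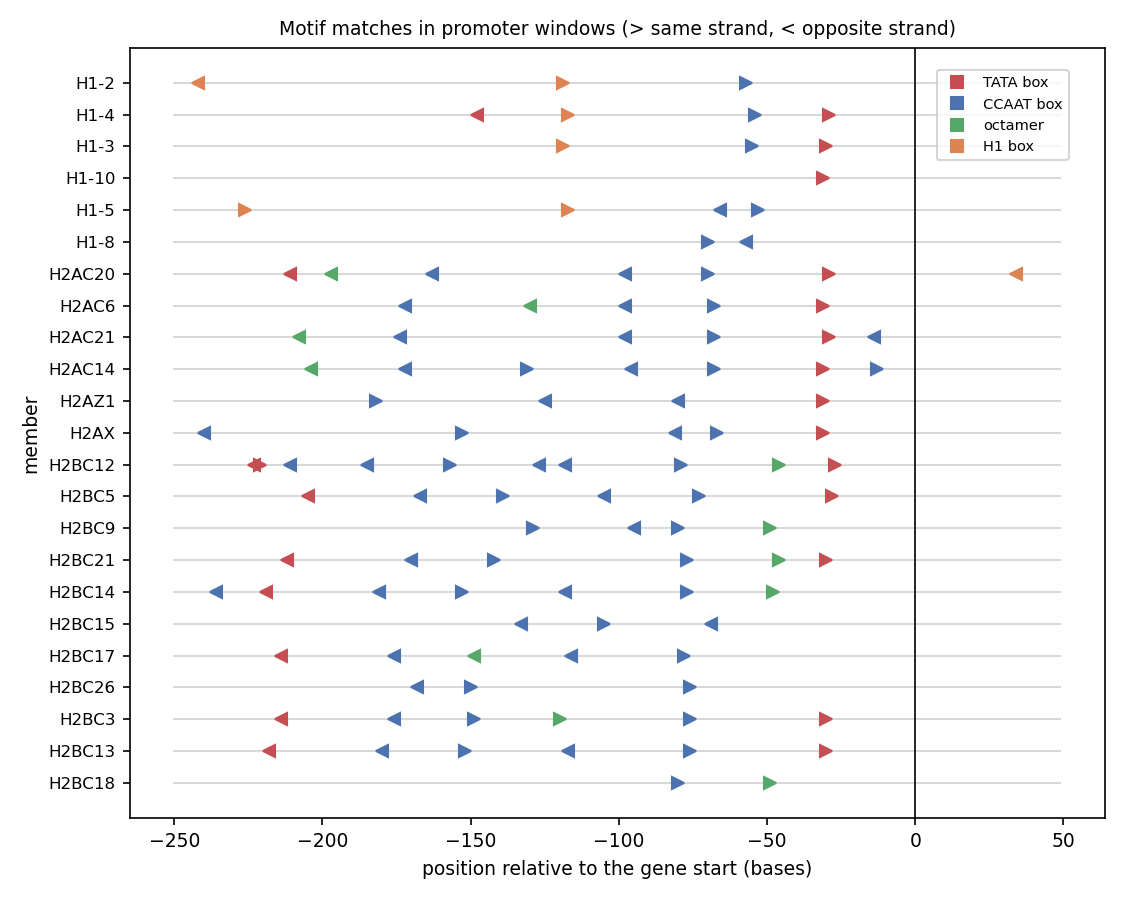
Positions of the 4 motifs in the promoter windows of the brighter histone genes that had a window, in bases from the gene's first base, with rightward arrowheads for the gene's strand and leftward ones for the other. Octamers sit near -48 in most H2B windows that hold one, H1 boxes near -117 in H1 windows, and H1-10 shows a TATA box alone.

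As a check of the labels only, 7 of 7 genes typical of SUM159 were higher in SUM159 and 8 of 8 T47D markers were higher in that line. The gaps were small: the 7 genes summed to 32.2 to 35.3 log2 units per array in SUM159 and 29.5 to 31.1 in T47D, and the 8 to 32.9 to 34.3 and 37.5 to 39.4. Markers of other cells were near background, with 4 of 5 immune, 4 of 4 fibroblast and 3 of 3 measured endothelial genes below a 24-array mean of 2 on the log2 scale. A mean below 2 is a low level on these arrays, found for 49% of all genes, and it also applied to 12 of the 36 histone genes, so that 24 are called brighter below. One array, SUM159 with DMSO, Aldefluor+, experiment 4, had a narrower spread of values (interquartile range 2.05, against 2.17 to 2.33 on the others). The submitters adjusted the values for batch with settings that the sources used here leave out, so how far levels of the lines were drawn together is unknown, and histone levels are compared within a line only.

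H1-10 fell with ID8 in both lines, and it was the only one of the 36 histone genes called in any of the 16 comparisons. H1-10 (old symbol H1FX, chromosome 3, 129314771 to 129316286 in GRCh38.p14) encodes H1.10, a replacement linker histone that is not tied to S phase. In Aldefluor+ cells of SUM159 it read 6.36, 6.196 and 6.23 log2 units with DMSO and 5.55, 5.55 and 5.70 with ID8 (experiments 2, 3 and 4). The ID8 arrays all lay below the DMSO arrays, and the difference was -0.66 ± 0.11 (SE, n = 3 arrays per group), a 1.58-fold lower signal, with an adjusted p of 0.0199 (limma). In Aldefluor+ cells of T47D it read 6.24, 6.12 and 5.92 with DMSO and 5.39, 5.37 and 5.49 with ID8 (experiments 5, 6 and 7). Again no ID8 array reached a DMSO array, and the difference was -0.68 ± 0.11, 1.6-fold lower, with an adjusted p of 0.0129. Fewer cells that express a gene and less transcript per cell cannot be told apart in such bulk samples.

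In Aldefluor- cells the same gene read 5.82, 5.92 and 5.85 with DMSO and 5.39, 5.42 and 5.34 with ID8 in SUM159. Its values in T47D were 5.78, 5.85 and 5.93 with DMSO and 5.42, 5.49 and 5.52 with ID8. In each line the ID8 arrays lay below all DMSO arrays, with differences of -0.47 ± 0.11 and -0.38 ± 0.11, but over all genes the adjusted p-values were 0.109 and 0.467, or 0.00889 and 0.0889 without the experiment as a block. P-values without the block, here and below, may be too small, since the submitters had already adjusted the values for experimental batches. Averaged over both fractions, H1-10 fell by 0.57 in SUM159 (adjusted p = 0.00117) and by 0.53 in T47D (adjusted p = 0.00508). Both fractions of a treatment in an experiment were sorted from the same pooled cells, but the fit counts their arrays as separate. P-values for ID8 over both fractions, here and below, may therefore be too small, also where the lines are compared. H1-10 was lower with ID8 in all 3 experiments of every pair. The effect of ID8 differed between fractions by -0.19 (95% interval -0.51 to 0.14) in SUM159 and -0.30 (-0.63 to 0.03) in T47D, and between lines by -0.04 (-0.27 to 0.19), none of which was called.

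The H1-10 calls within a single fraction rest on all the experiments. In Aldefluor+ cells, leaving out any 1 experiment ended the call, with adjusted p-values of 0.283, 0.197 and 0.0923 in SUM159 (without experiments 2, 3 and 4) and 0.219, 0.215 and 0.107 in T47D (without 5, 6 and 7), while the difference stayed between -0.73 and -0.59 and between -0.80 and -0.59. Fitting a line alone also ended both calls (0.096 and 0.0809). Over both fractions of SUM159, the call was kept under all 13 alternatives. Over both fractions of T47D it was lost without experiment 5 (0.126), without experiment 6 (0.153) and with T47D alone (0.0555).

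**Figure D2:**
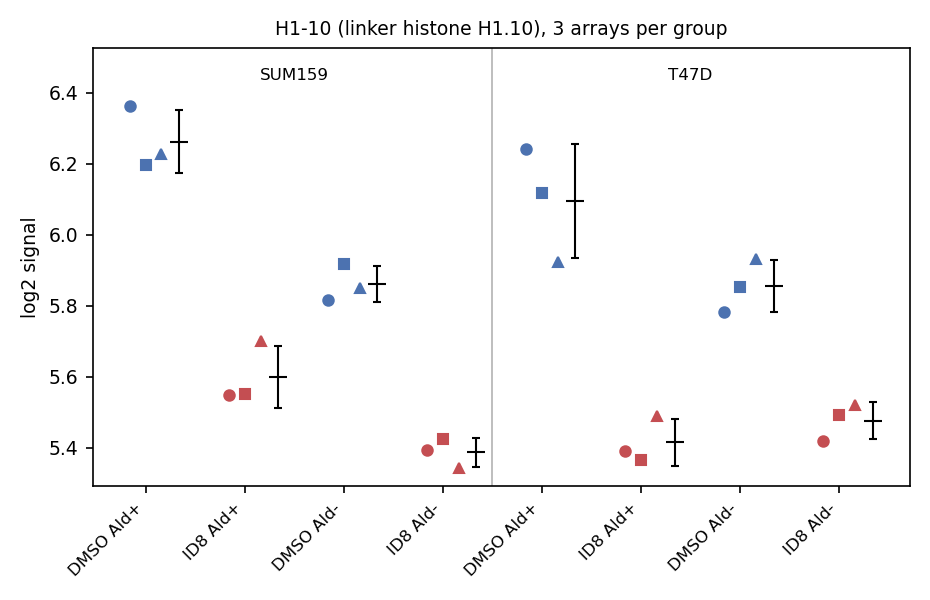
H1-10 signal (log2) on each of the 24 arrays, by group, with circles, squares and triangles for experiments 2, 3 and 4 in SUM159 and 5, 6 and 7 in T47D, blue for DMSO and red for ID8, and bars for the mean and SD of 3 arrays. Every ID8 group sits below its DMSO group without overlap, between 5.34 and 5.70 against 5.78 to 6.36.

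The residual SD of H1-10, the spread left after groups and experiments are fitted, was 0.0978. Over the 24 brighter histone genes the median was 0.279, and over all 11418 genes with a mean of at least 2 it was 0.205.

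Read against all genes, 1 of 36 histone genes was called for ID8 in Aldefluor+ cells of SUM159, where 0.241% of all genes were. In Aldefluor- cells of SUM159 0 of 36 were called by limma (0.277% of all genes), with 2 at an unadjusted p under 0.05. For ID8 in Aldefluor+ cells of T47D 1 of 36 was called (0.375% of all genes), and in Aldefluor- cells of T47D 0 of 36 (0.0179% of all genes), with 4 at an unadjusted p under 0.05. Over both fractions it was 1 of 36 in SUM159 (0.688% of all genes) and 1 of 36 in T47D (0.505%).

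Below the threshold, histone differences with ID8 were more often below 0 than above it. The median difference over the 36 genes was -0.12 and -0.10 in Aldefluor+ and Aldefluor- cells of SUM159 and -0.21 and -0.11 in those of T47D, beside medians over all genes of -0.01, -0.01, -0.01 and -0.00. Below 0 were 24, 21, 25 and 23 of the 36 genes. Above 0 were the other 12, 15, 11 and 13, beside 48.3%, 47.8%, 48.2% and 49.9% of all genes. By experiment the medians of the 36 genes were -0.33, -0.23 and 0.03 in Aldefluor+ and -0.19, 0.04 and -0.14 in Aldefluor- cells of SUM159 (experiments 2, 3 and 4), and -0.17, -0.31 and -0.24 in Aldefluor+ and 0.02, -0.07 and -0.24 in Aldefluor- cells of T47D (experiments 5, 6 and 7). An experiment thus had a median above 0 in each comparison but that of T47D Aldefluor+ cells. With an experiment or the narrow array left out, the medians ran from -0.22 to -0.12 and from -0.13 to -0.05 in the fractions of SUM159 and from -0.27 to -0.18 and from -0.17 to -0.11 in those of T47D. Over the 24 brighter genes they were -0.26, -0.07, -0.27 and -0.24. Of the 36 genes, 7, 2, 8 and 4 were at an unadjusted p under 0.05 in limma, beside 10.3%, 8.03%, 10.8% and 6.6% of all genes. Lower with ID8 were 7 of 7, 2 of 2, 7 of 8 and 3 of 4 of these, whereas the shares of all genes cover either direction. By experiment, the median of the 24 brighter genes in SUM159 Aldefluor+ cells was -0.41, -0.37 and -0.00 in experiments 2, 3 and 4. The DMSO array of experiment 4 is the one with the narrow spread, and its part in this was not tested.

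**Figure D3:**
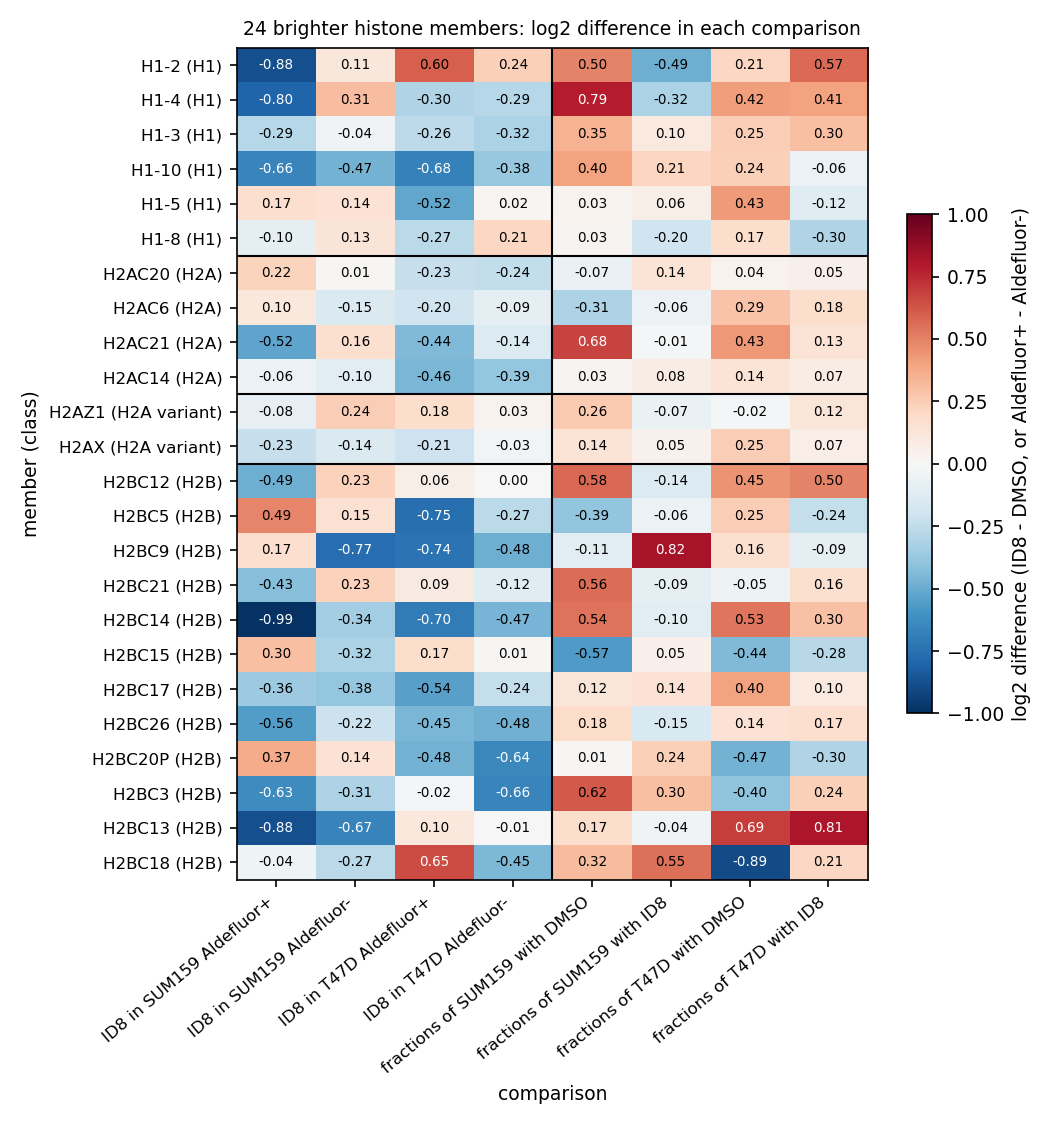
Log2 differences of the 24 brighter histone genes (rows, by class) in 8 comparisons: ID8 minus DMSO at left, Aldefluor+ minus Aldefluor- at right. Most ID8 differences are below 0 and most fraction differences with DMSO above it. Exceptions include H2BC18 and H1-2 in T47D Aldefluor+ cells (0.65 and 0.60).

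Among the clustered H1 genes, none was called. H1-4 read 8.76, 8.37 and 7.80 with DMSO and 7.24, 7.35 and 7.94 with ID8 in SUM159 Aldefluor+ cells. Experiments 2 and 3 showed lower values with ID8 and experiment 4 a slightly higher one, so the groups overlapped (difference -0.80 ± 0.26, adjusted p = 0.256). H1-2, the brightest H1 probe set, read 8.86, 8.56 and 7.86 with DMSO and 7.13, 7.35 and 8.17 with ID8 in the same cells, the same order by experiment (difference -0.88 ± 0.37, adjusted p = 0.418). In T47D Aldefluor+ cells H1-2 stood 0.60 higher with ID8, and over both fractions its differences were -0.38 in SUM159 and 0.42 in T47D (adjusted p of the difference between lines 0.444). The SUM159 value was -0.07 without experiment 2, -0.66 without experiment 4 and -0.57 without the narrow array. Its residual SD of 0.507 exceeds that of 97.2% of the brighter genes. The germ-cell linker histone H1-7, at a mean of 1.24, had the smallest p-value after H1-10 in this class over both fractions of SUM159 (-0.31 ± 0.10, adjusted p = 0.224), and is one of the dim genes.

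H2B is the class with the most measured genes, 12 of 14 of them brighter, and its values with ID8 came nearest to the threshold after H1-10. H2BC14 read 7.65, 7.64 and 7.56 with DMSO and 6.67, 6.31 and 6.89 with ID8 in Aldefluor+ cells of SUM159. The groups did not overlap, and the difference was -0.99 ± 0.22, 1.99-fold lower, with an adjusted p of 0.0858. In Aldefluor+ cells of T47D it read 7.66, 7.72 and 7.32 with DMSO and 6.93, 6.68 and 6.98 with ID8, again without overlap (-0.70 ± 0.22, adjusted p = 0.223). Over both fractions the differences were -0.67 ± 0.16 (adjusted p = 0.0657) and -0.58 ± 0.16 (adjusted p = 0.133). In SUM159, testing the 11418 brighter genes alone called it in Aldefluor+ cells (adjusted p = 0.0464) and over both fractions (0.0331). Without the experiment as a block, where p-values may be too small, it was called in the same 2 comparisons (adjusted p = 0.0129 and 0.011). It was then also called over both fractions of T47D. In each of the 2 SUM159 comparisons H2BC14 was called under 3 of 13 alternatives. Adjusted p-values in limma rose to 0.41 in Aldefluor+ cells and 0.37 over both fractions.

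H2BC9 read 7.47, 7.65 and 7.55 with DMSO and 6.86, 6.92 and 6.59 with ID8 in Aldefluor- cells of SUM159, without overlap (-0.77 ± 0.19, adjusted p = 0.161). In Aldefluor+ cells it read 7.19, 7.40 and 7.76 with DMSO and 7.83, 7.42 and 7.60 with ID8, with overlap (0.17 ± 0.19). The effect of ID8 differed by 0.93 (95% interval 0.36 to 1.51) between the fractions, with an adjusted p of 0.539 over all genes. In Aldefluor+ cells of T47D it read 7.41, 7.52 and 7.81 with DMSO and 7.04, 6.77 and 6.71 with ID8, without overlap (-0.74 ± 0.19, adjusted p = 0.135). Over both fractions of T47D the difference was -0.61 ± 0.14 (adjusted p = 0.0624), a call when the 11418 brighter genes were tested alone (0.0306). Without the experiment as a block H2BC9 was called in Aldefluor- cells of SUM159 (adjusted p = 0.029), in Aldefluor+ cells of T47D (0.0256) and over both fractions of T47D (0.00835). In these comparisons, in this order, it was called under 1 of 13, 2 of 12 and 3 of 12 alternatives. Adjusted p-values in limma rose to 0.562, 0.477 and 0.445.

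H2BC12, the brightest H2B probe set, differed by -0.13 and 0.03 over both fractions of SUM159 and T47D, and the sign changed when an experiment was left out. H2BC20P, a transcribed pseudogene, read 5.02, 4.82 and 4.79 with DMSO and 4.13, 3.98 and 4.60 with ID8 in Aldefluor- cells of T47D (-0.64 ± 0.20, adjusted p = 0.524). Its effect of ID8 over both fractions was 0.82 ± 0.20 higher in SUM159 than in T47D (adjusted p = 0.084), and in T47D it was -0.56 ± 0.14 (adjusted p = 0.109). The difference between lines was called with dim genes filtered out (adjusted p = 0.0414), with a trended, robust prior (0.0441) and without the experiment as a block (0.0138), and the T47D difference without the block (0.0199). H2BC1, a testis H2B gene with a mean of 0.78, differed by 0.53 ± 0.20 in the same cells (adjusted p = 0.675).

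**Figure D4:**
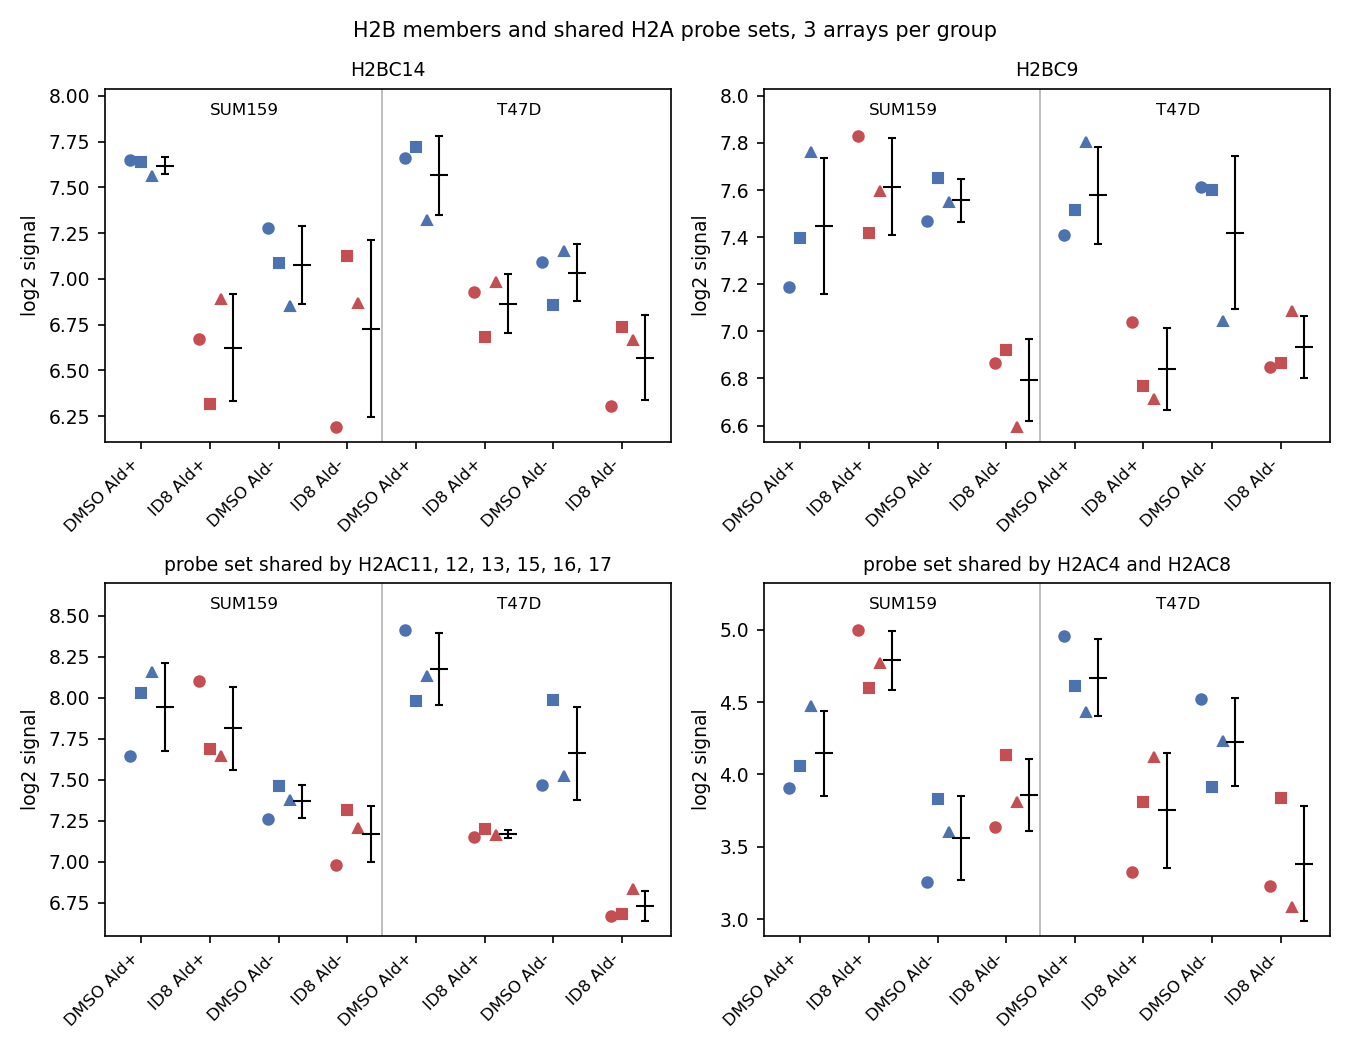
Signal (log2) of H2BC14 and H2BC9 and of 2 probe sets shared by H2A genes on each of the 24 arrays, with symbols by experiment, blue for DMSO, red for ID8 and bars for the mean and SD of 3 arrays. The H2BC9 arrays of SUM159 with ID8 run from 6.59 to 6.92 in Aldefluor- cells and from 7.42 to 7.83 in Aldefluor+ cells, and the probe set of 6 H2A genes is low with ID8 in both T47D fractions.

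None of the single-gene H2A probe sets or variants was called with the settings used throughout. H2AC20, which lies 57 bases from H2AC21 in HIST2, read 11.12, 11.18 and 11.01 with DMSO and 10.96, 10.83 and 10.84 with ID8 in Aldefluor+ cells of T47D. Over both fractions of T47D it was -0.24 ± 0.08 with no overlap (adjusted p = 0.268), and in SUM159 it was 0.12. With a trended, robust prior H2AC20 was called over both fractions of T47D (adjusted p = 0.0484) and for the difference between lines (0.35, adjusted p = 0.0335). H2AX, the variant phosphorylated at DNA breaks, differed by -0.19 in SUM159 and -0.12 in T47D over both fractions, and H2AZ1, a variant found at promoters, by 0.08 and 0.10. In Aldefluor- cells of SUM159 H2AZ1 differed by 0.24 (0.183 to 0.351 under the alternatives), with adjusted p-values of 0.303 or more. H2AC14 differed by -0.06 in SUM159 Aldefluor+ cells, where its head-to-head neighbour H2BC14 differed by -0.99. In T47D Aldefluor+ cells the same pair differed by -0.46 and -0.70. H3C13 and H4C7, the only single-gene probe sets of their classes, had means of 1.26 and 0.55, and their differences of 0.14 and -0.15 in SUM159 and -0.40 and 0.03 in T47D are those of dim probe sets.

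Without ID8, no histone gene was called between Aldefluor+ and Aldefluor- cells, and most had a higher value in Aldefluor+ cells. With DMSO, 26 of 36 were higher in the Aldefluor+ fraction of SUM159 (median 0.13, all genes -0.01) and 27 of 36 in that of T47D (median 0.16, all genes 0.00). The calls were 0 of 36 in SUM159 (0.0223% of all genes) and 0 of 36 in T47D (0.152%), by limma. At an unadjusted p under 0.05 there were 10 and 5 of the 36, beside 7.95% and 8.96% of all genes. In SUM159, 9 of those 10 were higher in Aldefluor+ cells, while in T47D it was 2 of 5.

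H2AC21 read, in SUM159 with DMSO, 9.40, 9.21 and 9.004 in Aldefluor+ and 8.47, 8.53 and 8.59 in Aldefluor- cells. The fractions did not overlap (0.68 ± 0.21, adjusted p = 0.462). H1-4 likewise read 8.76, 8.37 and 7.80 against 7.67, 7.43 and 7.47 (0.79 ± 0.26, adjusted p = 0.467), and H1-10 was 0.40 ± 0.11 higher (adjusted p = 0.329). In T47D with DMSO, H2BC14 read 7.66, 7.72 and 7.32 against 7.09, 6.86 and 7.15 (0.53 ± 0.22, adjusted p = 0.474). H2BC18 ran the other way there, at 2.00, 2.34 and 1.90 in Aldefluor+ against 3.27, 2.71 and 2.95 in Aldefluor- cells (-0.89 ± 0.26, adjusted p = 0.261). The value was -0.43 over the mean of its 3 probe sets. H2BC20P differed by -0.47 ± 0.20 (adjusted p = 0.492).

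With ID8, the median differences between fractions were 0.05 in SUM159 and 0.07 in T47D, and 0 of 36 genes were called in either (0.201% and 0.366% of all genes), with 1 and 0 at an unadjusted p under 0.05 in limma, beside 7.52% and 8.93% of all genes. With an experiment or the narrow array left out the medians ran from -0.04 to 0.14 in SUM159 and from 0.05 to 0.13 in T47D, so the sign in SUM159 was not stable. The 1 gene was H2BC9, at 7.83, 7.42 and 7.60 in Aldefluor+ and 6.86, 6.92 and 6.59 in Aldefluor- cells of SUM159 (0.82 ± 0.19, adjusted p = 0.126). H2BC18 and H1-10 followed in SUM159, at 0.55 (0.24 over the mean of the H2BC18 probe sets) and 0.21, with adjusted p-values of 0.33 or more under every alternative. In T47D with ID8 the smallest p-values were those of H2BC12 (0.50), H2BC13 (0.81) and H1-4 (0.41), with adjusted p-values of 0.301 or more under every alternative. The change in the fraction difference with ID8 was not called for any of the 36 genes in SUM159 (0.00447% of all genes) or T47D (0.0% of all genes, with 1328 genes at an unadjusted p under 0.05), though 5 and 1 were at an unadjusted p under 0.05 (7.06% and 5.93% of all genes).

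Averaged over treatments, 29 of 36 histone genes were higher in Aldefluor+ cells of SUM159 and 25 of 36 in those of T47D, beside 48.4% and 49.3% of all genes. Their medians by experiment were 0.17, 0.105 and 0.15 in SUM159 (experiments 2, 3 and 4) and 0.09, 0.14 and -0.02 in T47D (experiments 5, 6 and 7). In limma 0 were called in each (0.219% and 0.875% of all genes), and 7 and 6 were at an unadjusted p under 0.05 (8.46% and 11.1% of all genes). H1-10 stood 0.31 ± 0.08 higher in SUM159 (adjusted p = 0.147) and 0.09 ± 0.08 in T47D (adjusted p = 0.746). H1-6, a testis H1 gene with a mean of 0.81, differed by 0.32 ± 0.11 in SUM159 (adjusted p = 0.377), and H2BC9 by 0.36 ± 0.14 (adjusted p = 0.471). In T47D the smallest p-values were those of H2BC12 (0.47 ± 0.17), H2BC20P (-0.39 ± 0.14) and H2BC15 (-0.36 ± 0.14). Between lines, 0 of 36 genes differed by call in the effect of ID8 (0.647% of all genes) and 0 of 36 in the fraction difference (0.478% of all genes), with 5 and 4 at an unadjusted p under 0.05 (10.9% and 9.38% of all genes). The labels' cell numbers and RNA amounts give more RNA per collected cell in the Aldefluor+ sample in 12 of 12 pairs, with medians of 13.0 against 11.3 pg in SUM159 and 19.0 against 13.6 pg in T47D. Its part in the fraction differences was not tested.

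Genes that act in histone supply and in the cell cycle were set beside these values. Of 18 histone mRNA factors, among them SLBP and NPAT, which activates histone transcription, none was called in any of the 16 comparisons. The same held for 19 measured histone chaperones, 24 S phase genes and 16 mitosis genes. Of all genes, 0.0% to 0.875% were called per comparison. At an unadjusted p under 0.05 in limma there were 0 to 3, 0 to 5, 0 to 11 and 0 to 9 genes of these lists per comparison, where 5.93% to 11.3% of all genes were. SLBP differed by 0.01 and 0.28 with ID8 in Aldefluor+ and Aldefluor- cells of SUM159 and by 0.01 and -0.22 in those of T47D, and NPAT by at most 0.07 in size. The chaperone ASF1B, which hands new H3 and H4 to the replication fork, differed by -0.48 ± 0.13 over both fractions of T47D (adjusted p = 0.133) and -0.17 ± 0.13 in SUM159. CHAF1A, a subunit of the assembly factor CAF-1, differed by -0.34 ± 0.10 and -0.04 ± 0.10, and PCNA, the replication clamp, by -0.19 and 0.11. HAT1, which acetylates new H4, differed by -0.09 in T47D and 0.18 in SUM159, and the cyclin gene CCNE2 by -0.07 and 0.16. H3-3A and H3-3B, the replacement H3 genes, were named only by shared probe sets and are not analysed here. In T47D Aldefluor+ cells the median with ID8 was -0.26 over the S phase list and -0.25 over the mitosis list, next to -0.27 over the 24 brighter histone genes. In SUM159 Aldefluor+ cells the medians were 0.01, -0.16 and -0.26. In T47D Aldefluor+ cells 21 of 24 S phase genes and 16 of 16 mitosis genes were below 0. At an unadjusted p under 0.05 in limma, 11 of 24 and 9 of 16 were lower with ID8 there and none higher. Of all genes, 10.8% were at that level in either direction. The part of the cell cycle in the histone values was not tested.

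**Figure D5:**
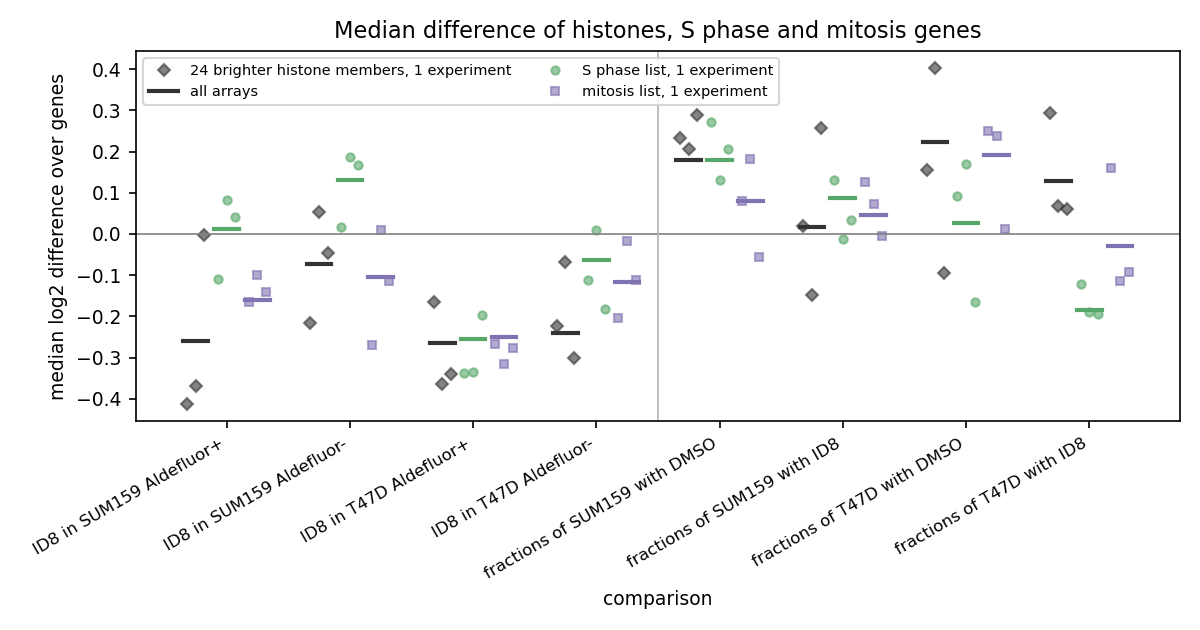
Median log2 difference over the 24 brighter histone genes (black), the S phase list (green) and the mitosis list (purple) in 8 comparisons, with a point for each experiment and a bar for the fit to all arrays. In T47D Aldefluor+ cells all points with ID8 lie below 0, whereas in SUM159 Aldefluor+ cells the histone points run from -0.41 to -0.00 and the S phase points from -0.11 to 0.08.

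Most H3 and H4 genes, many H2A genes and some H2B genes were named only by probe sets that list several genes. Sets with the same names differed in level. Mean signals over all arrays ran from 0.902 to 7.381 among sets naming the same 14 H4 genes. Among sets naming the same 10 H3 genes they ran from 1.316 to 7.323. Which of the listed genes a set reads was not tested. There were 40 such probe sets, which name 43 genes, 41 of them nowhere else, and 29 sets with distinct values were brighter. Their median difference with ID8 was -0.06 and -0.03 in Aldefluor+ and Aldefluor- cells of SUM159 and -0.30 and -0.24 in those of T47D. Over both fractions of T47D, 7 of 9 brighter H4 sets were below 0 (median -0.41) and 5 of 8 brighter H3 sets (median -0.14), and the sets called below are all of the H2A class. Fitted with all genes, 1 shared set was called for ID8 in Aldefluor+ cells of T47D (0.379% of all features), 2 over both fractions of T47D (0.513%) and 1 for the difference between lines (0.651%).

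A set that names H2AC11, H2AC12, H2AC13, H2AC15, H2AC16 and H2AC17 was the one called in Aldefluor+ cells. It read 8.415, 7.98 and 8.13 with DMSO and 7.15, 7.20 and 7.16 with ID8 in Aldefluor+ cells of T47D. The groups were well apart, at -1.005 ± 0.18, 2.01-fold lower (adjusted p = 0.0225), and over both fractions the set fell by 0.97 (adjusted p = 0.00214). In SUM159 it differed by -0.17 ± 0.13 over both fractions. The other 4 sets that name the same 6 genes differed by 0.24, -0.00, 0.33 and -0.03 in T47D, with none of these called. The values of 0.24 and 0.33 are those of dim sets, with 24-array means of 1.54 and 1.323. A set that names H2AC4 and H2AC8 fell by 0.88 over both fractions of T47D (adjusted p = 0.0402), while the brighter set that names this pair differed by -0.20 ± 0.10 (adjusted p = 0.521). Sets with the same names may read different genes of the group.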

How the data were processed

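The deposited values are log2 signals of Affymetrix Human Gene ST 2.1 arrays, made by the authors with robust multiarray averaging and adjusted with ComBat for experimental and processing batches, per the labels and the series' design text. RNA was amplified with a whole-transcriptome kit before labelling. Software versions and the batches given to ComBat are not stated in the sources used here. Precision is limited by the number of arrays, since no counts exist. All 24 value columns were mapped to samples by title.

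Of 53617 probe sets, 23871 named 1 gene. The set with the highest 24-array mean was kept per gene, which gave 22395 genes. Symbols were updated by gene number through RefSeq (GRCh38.p14). Probe sets naming several histone genes entered an alternative of 22435 features.

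limma 3.58.1 in R 4.3.3 (lmFit, eBayes) fitted 8 group means to all 24 arrays, and experiment number within line entered as a block. A fit without the block takes no account of the earlier batch adjustment, so its p-values may be too small. Benjamini-Hochberg adjustment ran over all genes per comparison, with calls made below 0.05. The fit was tested on simulated data drawn independently for each array. Those draws held no experiment effects, batch adjustment or shared pools, so the test does not cover their effect on p-values. Pairing comes from the labels, which give 1 number per experiment. Correlations of array deviations lay between -0.408 and -0.266 in the 36 same-experiment pairs, and between 0.0986 and 0.244 in the other 72. Arrays of a group serve every comparison that includes it. The fit does not model that both fractions of a treatment in an experiment come from the same pooled cells. P-values for ID8 over both fractions may therefore be too small.

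The genes and lists were chosen with earlier results of these data known. Genes named are those called, or where fewer than 3 were called the 3 with the largest moderated t in each comparison, plus the brightest of each class, H1-10, H2AX and H2AZ1. Any other gene was named after its values were seen. Of the listed other genes, SLBP, NPAT, ASF1B, CHAF1A, HAT1, PCNA, CCNE2 and, where measured, H3-3A and H3-3B were to be named. Alternatives covered the block, a filter on dim genes, the choice of probe sets, centring, quantile normalization, the variance prior, each line alone, shared probe sets, and each experiment or the narrow array left out.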

Additional observations from a re-analysis of the deposited data

Results flagged for a closer look

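The effect of ID8 on a probe set that names both H2AC4 and H2AC8 differed between the lines, by 1.35 on the log2 scale (SUM159 minus T47D, over both fractions, adjusted p = 0.0206 in limma with the shared sets added). In SUM159 Aldefluor+ cells it read 3.90, 4.06 and 4.475 with DMSO and 5.00, 4.59 and 4.77 with ID8, and in T47D Aldefluor+ cells 4.96, 4.61 and 4.43 with DMSO and 3.325, 3.81 and 4.12 with ID8. The values were higher with ID8 in all 3 experiments of SUM159 and lower in all 3 of T47D. The brighter probe set for the same 2 genes gave -0.02 for the same difference (adjusted p = 0.987).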

How the results depend on the processing

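Without the replicate block, which leaves the experiment pairing out of the fit, the called histone genes numbered 2 for ID8 in each SUM159 fraction and in T47D Aldefluor+ cells, 2 over both fractions of SUM159, 4 over both of T47D, 1 each for the SUM159 fractions with ID8 and over both treatments, and 1 for ID8 between lines. With dim genes filtered out the counts were 2, 1 and 2 for ID8 in SUM159 Aldefluor+, Aldefluor- and both, 2 over both fractions of T47D and 1 between lines, and the medians 0.18 for the SUM159 fractions with DMSO, -0.27 for ID8 in T47D and -0.20 for ID8 by fraction in SUM159. With a trended, robust prior they were 2, 1 and 2, 1 for the SUM159 fractions with ID8, 2 and 4 for ID8 in T47D Aldefluor+ and both, and 2 between lines. Each line alone gave 0 for both Aldefluor+ comparisons and for ID8 in T47D. Shared probe sets raised T47D Aldefluor+ to 2, T47D both to 3 and between lines to 1, and moved the median of ID8 by fraction in SUM159 to -0.022. Leaving out an experiment or the narrow array gave 0 to 1 for ID8 in SUM159 Aldefluor+, 0 to 0 in T47D Aldefluor+ and 0 to 1 in T47D both, and medians from 0.11 to 0.27 for the SUM159 fractions with DMSO, -0.16 to 0.01 for ID8 in SUM159, 0.10 to 0.16 for the SUM159 fractions over both treatments, -0.223 to -0.024 and -0.109 to 0.013 for ID8 by fraction in SUM159 and T47D. The other 192 medians moved by less than 1 SD over experiments, which does not exclude a change of sign, and the other 171 counts by less than 1.5 times.

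The sign changed only for values that were not called. For ID8 in SUM159, H2BC12 ran from -0.271 to 0.064 and H3C13 from -0.054 to 0.257 when an experiment or the array was left out. For ID8 in T47D, H2BC12 was -0.002 after quantile normalization and ran from -0.155 to 0.222 with an experiment left out, and H4C7 from -0.135 to 0.141. For the SUM159 fractions over both treatments, H1-2 was -0.011 after median centring and ran from -0.034 to 0.19 with an experiment or the array left out, H2AC20 from -0.012 to 0.105 and H3C13 from -0.07 to 0.628. For the T47D fractions, H2AC20 ran from -0.005 to 0.113 and H2AZ1 from -0.039 to 0.129. The cause was not tested. The low signal of 12 genes, among them H3C13 and H4C7, limits what the arrays show of them.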

Other observations

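Among the brighter histone genes, the spread between arrays that groups and experiments leave differed widely by gene. H2BC13 and H2BC3 had residual SDs of 0.584 and 0.58, above 98.7% and 98.6% of the brighter genes, whereas H2AC20, H2AZ1 and H1-10 had 0.114, 0.123 and 0.0978. H2BC13 read 4.28, 4.12 and 3.10 in SUM159 with DMSO, Aldefluor+, and 3.26, 3.21 and 2.38 with ID8 (-0.88 ± 0.42, adjusted p = 0.492).

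Of 8 replacement variants that the rule does not cover, 5 were measured by single-gene probe sets. By limma 0 were called in any of the 16 comparisons, where 0.0% to 0.875% of all genes were. The median difference between Aldefluor+ and Aldefluor- cells with ID8 was -0.26 in T47D (5 of 5 genes below 0) and 0.16 in SUM159 (4 of 5 above 0). By experiment the medians were 0.05, -0.18 and -0.41 in T47D (experiments 5, 6 and 7), so experiment 5 went the other way. In SUM159 they were 0.18, 0.07 and 0.19 (experiments 2, 3 and 4). At an unadjusted p under 0.05 in limma there were 0 to 2 of the 5 genes per comparison, beside 5.93% to 11.3% of all genes.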
